A study of Mus musculus with 32 samples.

Results

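The transcripts described here were high in both mouse synovial sarcomas and control tissue by group median, and low in clear cell sarcomas and osteosarcomas. Of the 55419 transcripts in the deposited RNA sequencing table, 212 (0.383%) met the rule. The lower of the synovial sarcoma and control medians had to be at least 5 RPKM, a read count scaled by transcript length and by the number of mapped reads in the library. With 1 RPKM added to each median, it also had to be at least 3 times the clear cell sarcoma median and at least 3 times the osteosarcoma median. The higher of the synovial sarcoma and control medians had to be less than 4 times the lower. All 4 group medians therefore chose the members, and every contrast among the 4 tissue types is given below as a description, with no test. At the edges of the rule, the lowest synovial sarcoma or control median among members was 5.05 RPKM, and the nearest transcript outside had 4.97 RPKM. The smallest ratio to clear cell sarcoma or osteosarcoma was 3.01 inside and the nearest outside was 2.98. The largest ratio between synovial sarcoma and control was 3.99 inside and the nearest outside was 4.03.

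The series held 32 mouse libraries. The 6 synovial sarcomas had titles beginning Myf5-SSM2/PLUC, and their libraries are called 37-4, 37-7, 37-8, 39-5, 39-9 and 44 after the numbers in those titles. The 13 clear cell sarcomas had EA1 in their titles and were started with Bmi1IRESCreERT2 (2 libraries), Prx1CreERT2 (2), TATCre (4) or Rosa26CreER (5). The 7 osteosarcomas had Rb1p53 in their titles, 4 with Col1Cre and 3 with Prx1Cre. The 6 controls were labelled Chest (5) or Bone (1), with no tissue, strain or age stated. No batch, date or animal was given either. The p-values below thus set differences between groups only against the variation between these libraries, which can include technical variation. Titles share the number 37 in 3 synovial sarcomas, 39 in 2 synovial sarcomas and N123 in 2 TATCre clear cell sarcomas, and nothing states whether these came from the same animal.

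Synovial sarcoma is a soft tissue tumour driven by a fusion of SS18 with a member of the SSX family, a change in a chromatin remodelling complex. Mouse models start it by switching on the fusion with Cre recombinase in chosen cells, and Myf5 is an early regulator of the skeletal muscle lineage. Clear cell sarcoma carries a fusion of EWSR1 with ATF1, which turns a signal-dependent activator into a constant one. Osteosarcoma can be started in mice by loss of the tumour suppressors Rb1 and p53 in bone-forming or limb mesenchyme cells. TATCre is a cell-permeable form of the recombinase that acts where it is injected, whereas CreER and CreERT2 act in the cells that express them once tamoxifen is given. Col1Cre marks cells that make type I collagen, such as osteoblasts, and Prx1Cre marks early limb mesenchyme. Tumours that grow within a tissue may hold cells of that tissue, and in bulk RNA fewer cells of a type and less RNA per cell cannot be told apart.

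The files list UCSC transcript identifiers and do not pair them with gene names, so no gene, role or sequence is given to any member. For the same reason neither the control tissue nor the tumour types were checked against marker genes, and how far muscle or other normal tissue was present in each library was not tested. The table's rows stand in identifier order, and 35 members had another member within 5 rows, in runs of at most 5. Some members may thus be transcripts of 1 locus, which would share or split reads. Whole-read steps in the RPKM values gave a length for 206 members, with a median of 746 bases and a range of 3 to 15788. Of these, 47 were under 100 bases, where each read is worth many RPKM. The recovered depths were 8.11 to 13.1 megareads (Mreads) per library, and the synovial sarcomas averaged 10.3 ± 1.72 Mreads (SD, n = 6) and the controls 10.3 ± 1.02 Mreads (SD, n = 6). A member had a median of 165.5 reads in a synovial sarcoma library, 15 in a clear cell sarcoma library, 12 in an osteosarcoma library and 351.5 in a control library.

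The medians of the members spanned more than 3 orders of magnitude. In synovial sarcoma the group median of a member ran between 5.05 and 7228 RPKM, with quartiles of 16.4 and 104 and a middle value of 33.7 RPKM. In clear cell sarcoma the middle value was 1.37 RPKM (quartiles 0.183 and 4.80), and 50 members had a median of 0. In osteosarcoma it was 1.61 RPKM (quartiles 0.106 and 5.16), and 47 members had a median of 0. In controls it was 63.5 RPKM (quartiles 21.6 and 215), with a range of 5.22 to 15619 RPKM. A median of at least 1000 RPKM was reached by 12 members in synovial sarcoma and by 20 in controls. Of those 20, 6 were shorter than 100 bases and 6 had no recovered length.

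Most members sat below their control level in synovial sarcoma, although the rule allowed either direction. The synovial sarcoma median was higher than the control median for 46 members and lower for 166. The middle difference, synovial sarcoma minus control on the log2(RPKM + 1) scale, was -0.99, and the rule itself limits how far it can lie on either side of 0. Over all 15230 transcripts with at least 1 RPKM in at least 6 libraries, a group that took in all 212 members, the same middle difference was 0.57. After median ratio scaling, which brings that middle difference to 0, the split was 19 members higher and 193 lower. After quantile normalization it was 21 higher and 191 lower.

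**Figure D1:**
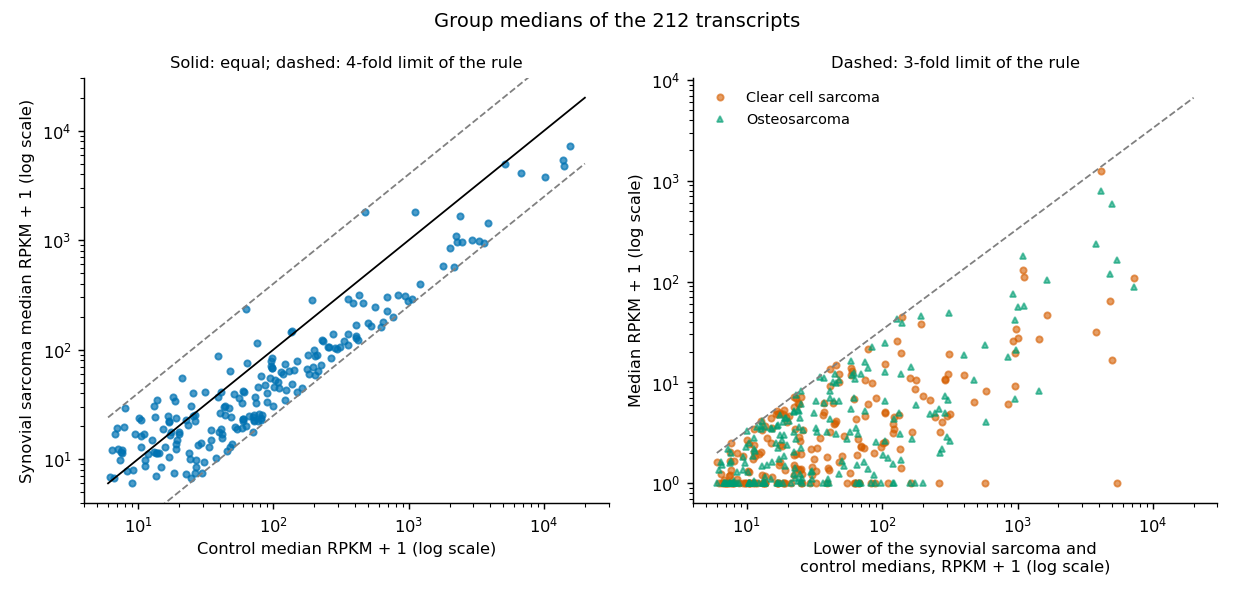
Group medians of the 212 transcripts on log axes, 1 RPKM added. The left panel plots synovial sarcoma against control, with a solid line of equality and dashed lines at the 4-fold limit of the rule; 166 points lie below the solid line. The right panel plots clear cell sarcoma (circles) and osteosarcoma (triangles) against the lower of the synovial sarcoma and control medians, with a dashed line at the 3-fold limit, above which no member can lie.

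Library by library, synovial sarcoma was not uniform. The mean log2(RPKM + 1) over the 212 members was 6.36 in library 44, 6.22 in 37-4, 5.81 in 37-8, 4.81 in 39-9, 3.82 in 39-5 and 3.55 in 37-7. The controls had 6.64 in Chest4, 6.53 in Bone3, 6.42 in Chest5, 5.97 in Chest3, 5.94 in Chest2 and 5.81 in Chest1. Libraries 44, 37-4 and 37-8 thus lay within the control range, 37-8 at its lower edge, and the other 3 synovial sarcomas lay below every control. The mean over libraries was 5.10 ± 1.22 in synovial sarcoma (SD, n = 6) and 6.22 ± 0.353 in controls (SD, n = 6). The libraries with title number 37 held both the lowest synovial sarcoma and 2 of the 3 highest, so a shared title number did not go with a shared level. The Bone library lay inside the range of the 5 Chest libraries.

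The label under which these transcripts were grouped, control transcripts retained only in synovial sarcoma, did not hold for single libraries. Several clear cell sarcomas and osteosarcomas carried the members at levels above the lower synovial sarcomas. The mean log2(RPKM + 1) was 5.52 and 4.90 in the Bmi1IRESCreERT2 libraries 1 and 2, and 4.94 in Rosa26CreER 2. It was 4.26 in Prx1CreERT2 2, 4.78 in the osteosarcoma Col1Cre 26 and 3.97 in Col1Cre 27. All 6 of these exceeded the synovial sarcomas 37-7 and 39-5, and 3 of them, both Bmi1IRESCreERT2 libraries and Rosa26CreER 2, also exceeded 39-9. The remaining 9 clear cell sarcomas had 0.959 to 2.75, and the remaining 5 osteosarcomas had 1.09 to 3.09. The mean over libraries was 2.64 ± 1.65 in clear cell sarcoma (SD, n = 13) and 2.51 ± 1.46 in osteosarcoma (SD, n = 7), so that in both types the spread between libraries was more than 1.4 on the log2 scale.

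**Figure D2:**
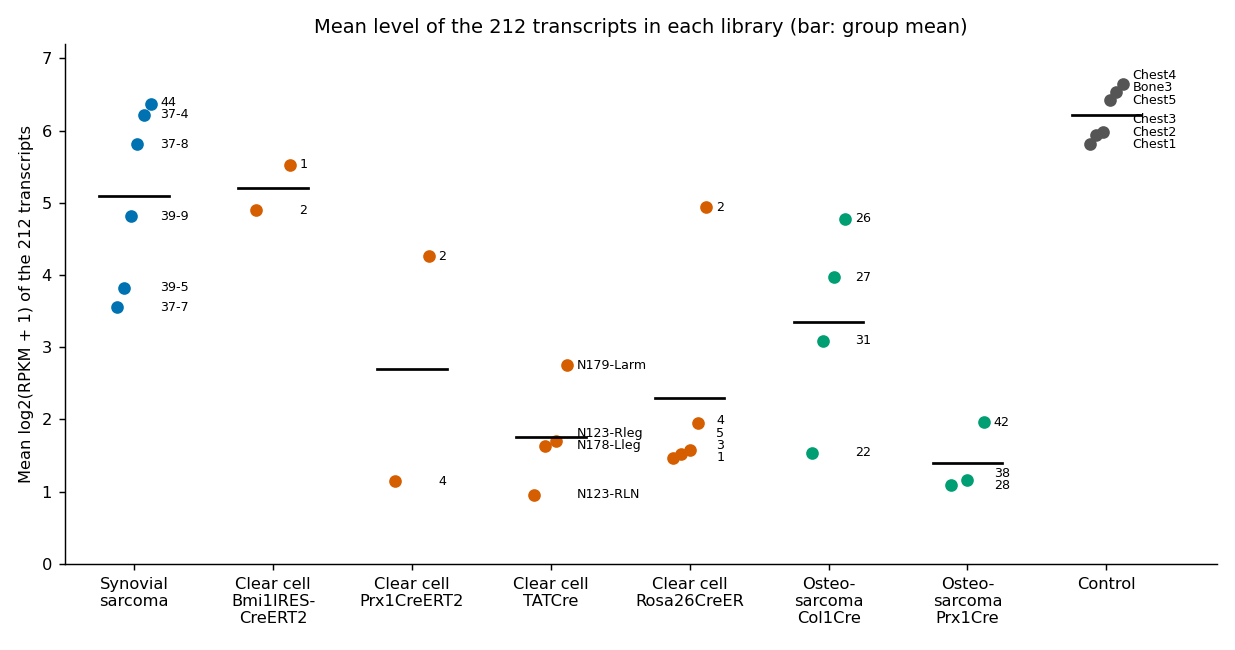
Mean log2(RPKM + 1) of the 212 transcripts in each of the 32 libraries, by group, with black bars for group means. Synovial sarcoma spreads between 3.55 and 6.36, the controls stay between 5.81 and 6.64, and the Bmi1IRESCreERT2 libraries, Rosa26CreER 2, Prx1CreERT2 2, Col1Cre 26 and Col1Cre 27 lie far above the lowest tumours, at 3.97 to 5.52.

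The share of all RPKM taken by the members picked out largely the same libraries, but in another order. By share, Prx1Cre 42 stood above Col1Cre 27, and 39-9 stood above every clear cell sarcoma and osteosarcoma. The share was 11.1% in synovial sarcoma 44, 9.90% in 37-4, 8.29% in 37-8, 7.05% in 39-9, 2.20% in 39-5 and 1.52% in 37-7. The clear cell sarcomas had 6.80% in Bmi1IRESCreERT2 2, 5.71% in Bmi1IRESCreERT2 1, 5.02% in Prx1CreERT2 2, 2.94% in Rosa26CreER 2, 1.20% in TATCre N179-Larm and at most 0.329% in the rest. The osteosarcomas had 4.19% in Col1Cre 26, 2.33% in Prx1Cre 42, 1.77% in Col1Cre 27 and at most 0.781% in the rest. The controls had 9.97% to 13.7%. As a share of reads, which does not weight short transcripts, the 206 members with a recovered length took 0.998% to 6.21% in synovial sarcoma, 0.0925% to 3.64% in clear cell sarcoma, 0.107% to 4.69% in osteosarcoma and 4.85% to 7.83% in controls. The 6 members with no length, left out of these read shares, were among the most abundant, with control medians of 1062 to 15619 RPKM. In synovial sarcoma 39-9 the members took 7.05% of RPKM, and those with a length took 1.83% of reads. Among transcripts of at least 100 bases, the members' share of RPKM was 11.2% in 44, 7.64% in 37-4 and 6.27% in 37-8. It was 2.49% in 39-9, 2.16% in 39-5 and 1.47% in 37-7. The same share was 5.49% and 5.39% in the Bmi1IRESCreERT2 libraries 1 and 2, 3.89% in Col1Cre 26, 3.38% in Prx1CreERT2 2 and 2.47% in Rosa26CreER 2.

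Counting members rather than summing them gave a similar picture. In synovial sarcoma 136 to 206 of the 212 members reached 5 RPKM in a library, and in controls 185 to 204 did. In clear cell sarcoma 188 and 166 did in the Bmi1IRESCreERT2 libraries 1 and 2, 186 in Rosa26CreER 2, 147 in Prx1CreERT2 2 and 29 to 93 elsewhere. In osteosarcoma 154 did in Col1Cre 26, 152 in Col1Cre 27, 113 in Col1Cre 31 and 33 to 61 elsewhere. Setting aside 34 members at 0 in at least 1 control, 142 were at or above the lowest control in synovial sarcoma 44, 122 in 37-4, 111 in 37-8, 47 in 39-9, 32 in 37-7 and 26 in 39-5. The same count was 75 and 70 in the Bmi1IRESCreERT2 libraries 1 and 2, 64 in Col1Cre 26, 43 in Prx1CreERT2 2, 33 in Rosa26CreER 2 and 22 in Prx1Cre 42. Of these 6 libraries, 5 passed the synovial sarcoma 39-5, and the remaining 14 had 0 to 11.

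Separation of whole groups was rare. In 4 members (1.89%) every synovial sarcoma was above every clear cell sarcoma and osteosarcoma, against 1.67% of all 15230 transcripts tested. In 37 members (17.5%) every control was above all of these tumours, against 1.65% of all transcripts tested. Every synovial sarcoma was above every clear cell sarcoma in 12 members (background 3.57%) and above every osteosarcoma in 10 (background 7.14%). In 1 member every synovial sarcoma was above every control (background 26.7%), and in 21 every synovial sarcoma was below every control (background 4.14%). Since the rule used these contrasts, nothing is read from these counts beyond which libraries overlapped.

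When the highest of the 20 clear cell sarcoma and osteosarcoma libraries was taken for each member, 3 libraries supplied most of them. Col1Cre 26 was highest for 53 members, Bmi1IRESCreERT2 2 for 52 and Bmi1IRESCreERT2 1 for 50. Prx1Cre 42 was highest for 22, Prx1CreERT2 2 for 10 and Rosa26CreER 2 for 8. The synovial sarcoma median was reached or passed by 127 members in Bmi1IRESCreERT2 1, by 107 in Bmi1IRESCreERT2 2, by 94 in Col1Cre 26, by 79 in Prx1CreERT2 2 and by 63 in Rosa26CreER 2. No other library of these types had more than 29.

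**Figure D3:**
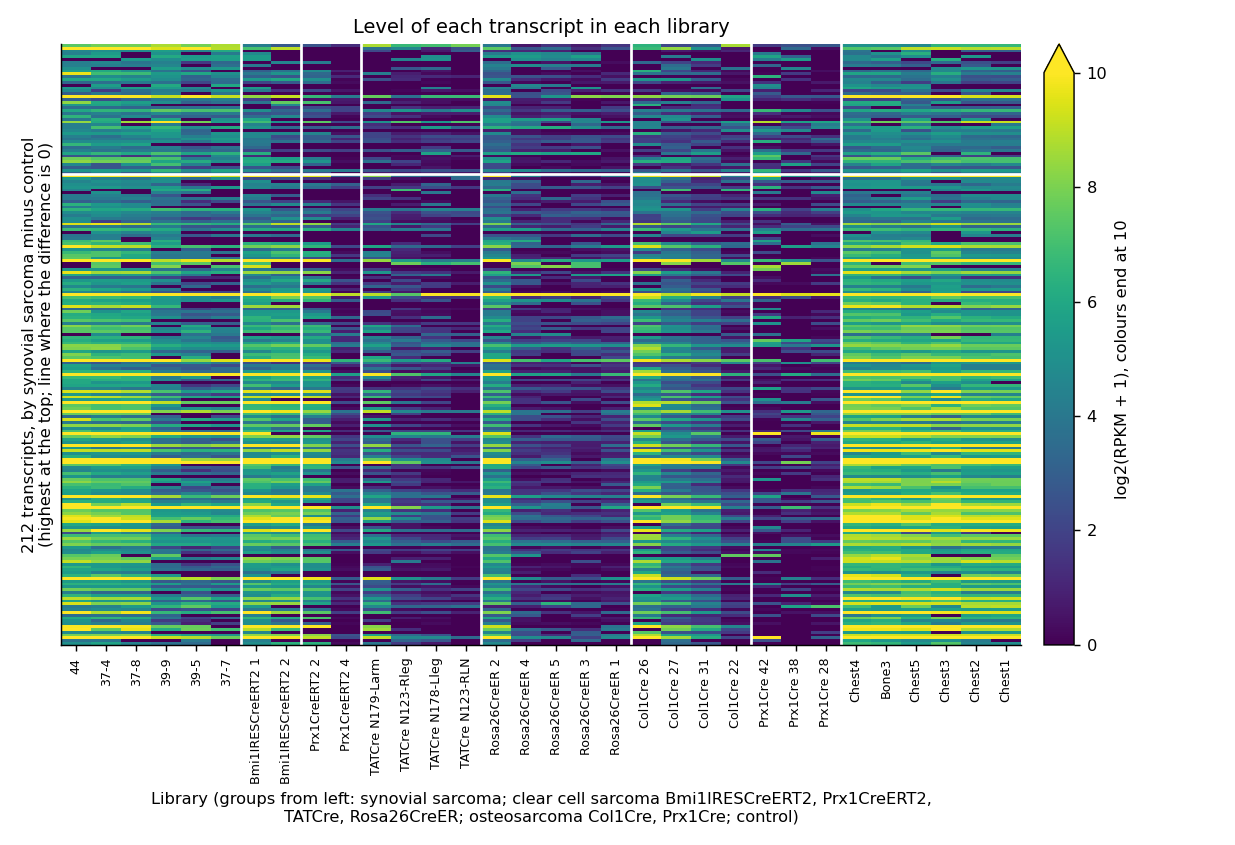
log2(RPKM + 1) of the 212 transcripts (rows, ordered by synovial sarcoma minus control, highest at the top) in the 32 libraries (columns, by group and by falling mean within a group). The white horizontal line divides the 46 transcripts with a higher synovial sarcoma median from the 166 with a higher control median; below it, the bright columns outside synovial sarcoma and control are Bmi1IRESCreERT2 1 and 2, Prx1CreERT2 2, Rosa26CreER 2 and Col1Cre 26.

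Most members moved together across libraries, and those higher in controls followed the mean of all members more closely. For 150 of the 212 members the 3 highest synovial sarcomas were 37-4, 37-8 and 44. That was so for 138 of the 166 members with the higher control median and for 12 of the 46 with the higher synovial sarcoma median. Library 44 was the highest of the 6 for 105 members, and 37-7 was the lowest for 120. Across the 26 tumours, the Pearson correlation of a member with the mean of the other members had a median of 0.846, and 124 members had at least 0.8. Its median was 0.878 for the 166 members higher in controls and 0.547 for the 46 higher in synovial sarcoma. Within the 13 clear cell sarcomas the 2 medians were 0.911 and 0.569, and within the 7 osteosarcomas 0.871 and 0.209. Within the 6 synovial sarcomas they were 0.925 and 0.332. The correlation was below 0 for 8 members within the clear cell sarcomas, 28 within the osteosarcomas and 25 within the synovial sarcomas. These are descriptions, and no other transcripts were set beside them. Members measured in a library share its depth and its tissue make-up. The choice of members by group medians bears on the figure over all tumours. Each mean was taken over all other members, most of them higher in controls. The lower values of the 46 thus do not show how far these moved with each other.

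The mean of the 46 members higher in synovial sarcoma differed less between its libraries than the mean of the 166 higher in controls. Members that do not move together average out in such a mean, so single members may differ more. For the 46, the mean log2(RPKM + 1) was 5.24 in 39-9, 5.20 in 44, 5.05 in 37-4, 4.57 in 37-8, 4.26 in 37-7 and 3.72 in 39-5. Their range was 0.727 to 3.65 in clear cell sarcoma, 0.983 to 2.63 in osteosarcoma and 3.47 to 4.51 in controls. The highest clear cell sarcomas on this measure, Bmi1IRESCreERT2 1 and Rosa26CreER 2, both had 3.65 and lay just below the lowest synovial sarcoma. The 166 members higher in controls had a mean of 6.69 in 44, 6.54 in 37-4, 6.16 in 37-8, 4.70 in 39-9, 3.85 in 39-5 and 3.36 in 37-7. For these, the clear cell sarcomas reached 6.04 in Bmi1IRESCreERT2 1, 5.55 in Bmi1IRESCreERT2 2, 5.30 in Rosa26CreER 2 and 4.84 in Prx1CreERT2 2. The osteosarcoma Col1Cre 26 reached 5.38, and the controls had 6.46 to 7.23. All 5 of these tumours of other types lay above the synovial sarcomas 39-9, 39-5 and 37-7.

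The members were set beside 2 other groups of transcripts defined on the same medians. The first was 615 transcripts at least 3-fold higher in controls than in every tumour type. Their mean log2(RPKM + 1) was 3.99 in synovial sarcoma 37-4, 3.85 in 44, 3.21 in 37-8, 2.85 in 39-9, 2.04 in 39-5 and 1.73 in 37-7. Nearly the same order was thus seen as for the members, although these transcripts were low in synovial sarcoma as a group. In the other tumours they reached 4.15 in Bmi1IRESCreERT2 1, 3.45 in Col1Cre 26, 3.31 in Rosa26CreER 2 and 3.14 in Bmi1IRESCreERT2 2, and the controls had 5.00 to 6.01. The 5 libraries of other tumour types in which the members were highest had 2.67 to 4.15 on this measure. Prx1Cre 42 stood apart, with 2.83 for these transcripts and 1.96 for the members. How much of the members' level in a tumour came from control-like tissue was not tested.

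The second group was 569 transcripts at least 3-fold higher in synovial sarcoma than in every other type. Their mean log2(RPKM + 1) was 4.99 in 39-9, 4.98 in 37-7, 4.14 in 37-4, 3.91 in 39-5, 3.57 in 37-8 and 3.16 in 44, against 0.691 to 2.11 in the 26 libraries of the other types. The library with the most of the members, 44, thus had the least of the synovial sarcoma transcripts, and 37-7, which had the least of the members, nearly equalled the highest. In the controls these 569 transcripts had 0.691 to 1.32.

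**Figure D4:**
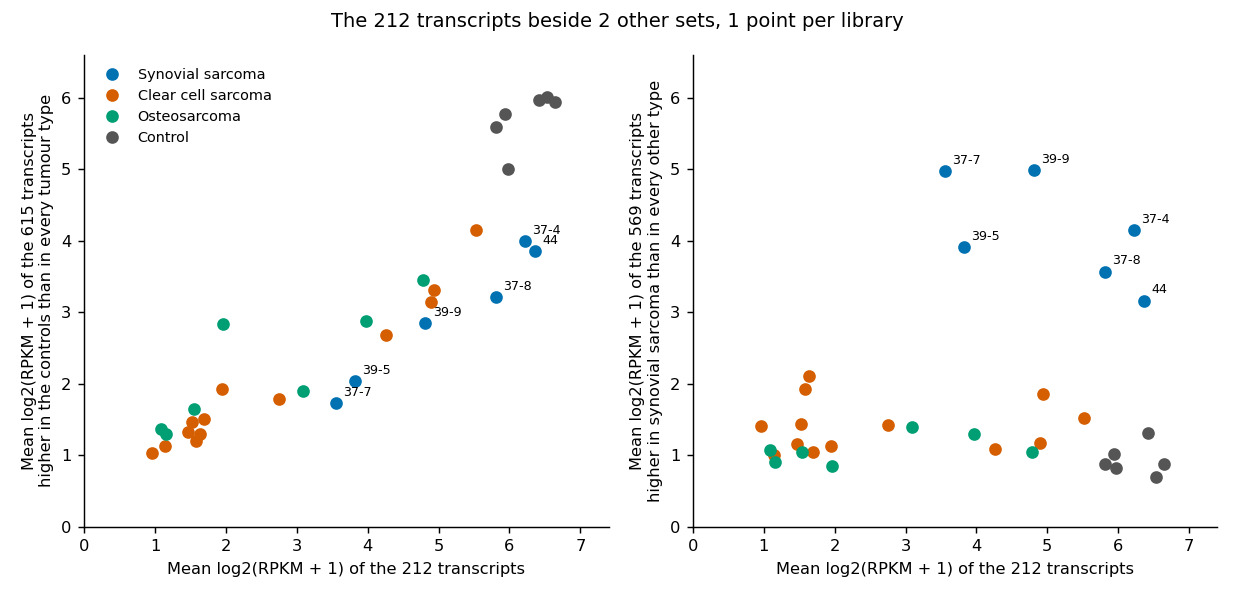
Mean log2(RPKM + 1) of the 212 transcripts (horizontal axis) against that of the 615 control-high transcripts (left) and the 569 synovial sarcoma transcripts (right), 1 point per library, coloured by tissue type. On the left the tumours rise together, with 37-4 and 44 at 3.99 and 3.85 on the vertical axis; on the right the synovial sarcomas stand at 3.16 or above, with 44 the lowest of the 6 and farthest to the right.

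Among members of at least 100 bases, the 2 with the largest differences in favour of synovial sarcoma were uc009teg.2 and uc009pmp.1. The transcript uc009teg.2 (809 bases) had 234, 435, 234, 238, 420 and 175 RPKM in synovial sarcomas 37-4, 37-7, 37-8, 39-5, 39-9 and 44, and a lowest, median and highest value of 26.5, 61.3 and 99.3 RPKM in the 6 controls. The 2 groups did not overlap, and the lowest synovial sarcoma here, 44, was the highest of the 6 for 105 members. In clear cell sarcoma it had 239, 104, 129 and 429 RPKM in the 4 TATCre libraries, 0.515 to 15.1 RPKM in the 5 Rosa26CreER libraries, at most 5.17 RPKM with Prx1CreERT2 and 18.05 and 5.86 RPKM with Bmi1IRESCreERT2. In osteosarcoma it had 418 RPKM in Col1Cre 22, 87.9 in Col1Cre 26 and 2.30 to 6.71 in the other 5. All 4 TATCre tumours were above every control, which the clear cell sarcoma median of 5.86 RPKM does not show.

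The transcript uc009pmp.1 (520 bases) had 2843, 474, 2506, 1075, 683 and 6580 RPKM in synovial sarcomas 37-4, 37-7, 37-8, 39-5, 39-9 and 44, and 151 to 566 RPKM in controls. Only 37-7 lay within the control range, and 44, 37-4 and 37-8 were the 3 highest synovial sarcomas. In clear cell sarcoma it reached 515 and 136 RPKM in the Bmi1IRESCreERT2 libraries 2 and 1 and 175 in Rosa26CreER 2, with 0 to 23.2 RPKM in the other 10. In osteosarcoma it had 330, 109, 32.6 and 0.591 RPKM in Col1Cre 27, 26, 31 and 22, and 0 to 9.69 in the 3 Prx1Cre libraries.

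Of the members higher in controls, the 2 with the largest differences were uc008qso.1 and uc009ibr.1. The transcript uc008qso.1 (585 bases) had 53.7, 31.9, 20.7, 12.5, 10.2 and 0 RPKM in synovial sarcomas 37-4, 44, 37-8, 39-9, 39-5 and 37-7, and 22.1 to 157 RPKM in controls. In clear cell sarcoma it had 84.8 RPKM in Prx1CreERT2 2, 83.3 and 28.6 in the Bmi1IRESCreERT2 libraries 2 and 1, 25.6 in Rosa26CreER 2 and 14.5 in TATCre N179-Larm, and at most 2.23 in the other 8. In osteosarcoma it was at 0 in 5 of 7 libraries and at 9.79 and 5.40 RPKM in Col1Cre 27 and 31. Both Prx1CreERT2 2 and Bmi1IRESCreERT2 2 thus exceeded every synovial sarcoma for this member.

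The transcript uc009ibr.1 (1740 bases) had 29.4, 19.1, 17.9, 5.95, 2.70 and 0.836 RPKM in synovial sarcomas 44, 37-4, 37-8, 39-9, 37-7 and 39-5, and 16.7 to 95.1 RPKM in controls. It had 29.0 and 13.4 RPKM in the Bmi1IRESCreERT2 libraries 1 and 2, 18.9 in Rosa26CreER 2 and 7.21 in Prx1CreERT2 2, and at most 0.284 in the other 9 clear cell sarcomas. It had 52.7 RPKM in Col1Cre 26 and 0 to 2.29 RPKM in the other 6 osteosarcomas. That 1 osteosarcoma library was above all 6 synovial sarcomas.

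Differences among tumours of 1 type were tested with limma across all transcripts that passed a filter on low values; a call means a Benjamini-Hochberg adjusted p under 0.05. The rule took 1 median over each tumour type and did not use the Cre groups, but it did use the same libraries. A low median holds down most libraries of a type and leaves a small Cre group free to be high. Through the rule alone, members could thus stand higher in such a group more often than all transcripts do. The p-values below do not allow for this. Members also pass the filter more easily through a Cre group in which they are high, so the counts and medians below describe the members that passed and support no statement about the 212.

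Among osteosarcomas, no transcript differed between Col1Cre and Prx1Cre past the threshold by limma: 0 of the 185 members that passed the filter and 0 of 12623 transcripts (0%). At an unadjusted p under 0.05 there were 82 members, 81 of them higher in Col1Cre, against 570 transcripts (4.52%). The log2 fold change, Col1Cre over Prx1Cre, had a median of 2.21 over the tested members and 0.23 over all transcripts, and 159 members were higher and 26 lower. Without the filter, 177 of all 212 members were higher and 35 lower, with a median of 1.90. All 4 Col1Cre libraries stood above all 3 Prx1Cre libraries in 50 members, against 4.77% of all transcripts tested. Col1Cre 22 was the exception within its group, with a mean log2(RPKM + 1) of 1.54 against 3.09 to 4.78 in the other 3, and the Prx1Cre libraries had 1.09 to 1.96. Without Col1Cre 22, 8 members were among 10 transcripts past the threshold. Leaving out any other library gave 0 members past the threshold. The 82 members at an unadjusted p under 0.05 became 31 without Col1Cre 27 (24.8% of those tested, against 2.33% of all transcripts). They became 39 without Col1Cre 26 (29.5%, against 4.2%) and 40 without Col1Cre 31 (30.5%, against 2.53%). Leaving out Prx1Cre 28 gave 45 (24.7%, against 13.8%), Prx1Cre 38 gave 45 (25%, against 6.14%) and Prx1Cre 42 gave 51 (29.7%, against 4.83%).

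Among clear cell sarcomas, an F test over the 4 Cre groups called 19 of 207 members tested (9.18%), close to the 10.7% of all 15195 transcripts. Of the named transcripts it called uc009teg.2 (adjusted p = 0.00218, limma) and uc009pmp.1 (adjusted p = 0.0429), but not uc009ibr.1 (0.0908) or uc008qso.1 (0.208). The count rested on single libraries. It was 61 (30.2% of those tested) without Rosa26CreER 2, against 9.3% of all transcripts. It was 5 to 9 (2.42% to 4.46%) without any one of Rosa26CreER 3, 4 or 5 or TATCre N123-RLN, N123-Rleg or N179-Larm. In those fits 5.04% to 9.06% of all transcripts were called. It was 15 (7.25%, against 9.34%) without Rosa26CreER 1 and 18 (8.74%, against 16.5%) without TATCre N178-Lleg. Leaving out a Bmi1IRESCreERT2 or Prx1CreERT2 library left a single one in that group. Counts from these fits are not given, and they moved both up and down.

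Bmi1IRESCreERT2 against TATCre, a contrast added after the values were seen, called 60 of 207 members (29.0%), against 11.6% of all transcripts. Both the rule and the late choice of the contrast bear on that excess, so it is given as a description only. Of the 60, 59 were higher in Bmi1IRESCreERT2, where 4.16% of all transcripts were called higher, and 1 was lower, where 7.43% were called lower. The log2 fold change had a median of 3.73 over the tested members and 0.14 over all transcripts, and 189 members were higher and 13 lower. The calls took in 53 of the 164 tested members that were higher in controls and 7 of the 43 that were higher in synovial sarcoma. Both Bmi1IRESCreERT2 libraries stood above all 4 TATCre libraries in 155 members, against 17.3% of all transcripts tested. With 2 Bmi1IRESCreERT2 libraries, the calls depended on each. Leaving out either left a single library in the group, and members were then not called at a higher share than all transcripts. The median log2 fold change of the tested members was 3.74 without library 1 and 4.13 without library 2. The count of called members was 17 when TATCre N123-RLN was left out (8.21% of those tested, against 6.67% of all transcripts). It was 26 for N123-Rleg (12.6%, against 9.34%) and 34 for N179-Larm (16.4%, against 5.39%). Without Rosa26CreER 3 it was 34 (16.4%, against 7.42%). It was 104 (51.5%, against 11.8%) without Rosa26CreER 2, a library outside the contrast that sets the spread.

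The named members took both directions in that contrast. By limma, uc009pmp.1 rose in Bmi1IRESCreERT2 over TATCre by 5.04 on the log2 scale (SE 1.44, adjusted p = 0.0453) and uc009ibr.1 by 4.31 (SE 1.12, adjusted p = 0.0356). The value for uc008qso.1, 4.06 (SE 1.78, adjusted p = 0.145), did not pass. The transcript uc009teg.2 was the 1 member called lower, at -4.08 (SE 0.91, adjusted p = 0.0215).

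Bmi1IRESCreERT2 against Rosa26CreER, also added after the values were seen, called 0 of 207 members by limma, and 4 of 15195 transcripts (0.0263%). At an unadjusted p under 0.05 there were 143 members, all higher in Bmi1IRESCreERT2, against 13.3% of all transcripts. The median log2 fold change was 3.16 over the tested members and -0.15 over all transcripts. Rosa26CreER 2, whose members averaged 4.94 against 1.47 to 1.95 in the other 4 Rosa26CreER libraries, decided the count of calls. Without it 32 members (15.8% of those tested) passed the threshold, against 1.04% of all transcripts. Leaving out either Bmi1IRESCreERT2 library left a single one in the group, and the share of members at an unadjusted p under 0.05 fell in both cases. The median log2 fold change was then 3.17 without Bmi1IRESCreERT2 1 and 3.41 without Bmi1IRESCreERT2 2.

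TATCre against Rosa26CreER, the contrast of the 2 largest Cre groups, called 8 of 207 members (3.86%), against 12.7% of all transcripts. Of the 8, 4 were higher in TATCre and 4 lower, where 5.53% and 7.16% of all transcripts were called higher and lower. The median log2 fold change was -0.50 over the tested members and -0.28 over all transcripts, and it turned to 0.16 without Rosa26CreER 2. The count of called members was lowest without TATCre N123-RLN, at 1 (0.483% of those tested, against 6.08% of all transcripts). It was highest without Rosa26CreER 1, at 13 (6.28%, against 14.2%). It was 2 without Rosa26CreER 4 (0.99%, against 6.43%), TATCre N123-Rleg (0.971%, against 7.65%) or TATCre N179-Larm (0.966%, against 4.84%). It was 3 without Rosa26CreER 3 (1.45%, against 5.75%) and 5 without Rosa26CreER 2 (2.48%, against 6.55%). The transcript uc009teg.2 rose in TATCre over Rosa26CreER by 5.92 on the log2 scale (SE 0.71, adjusted p = 0.000678, limma), and all 4 TATCre libraries were above all 5 Rosa26CreER libraries. Such a separation in this direction was seen in 3 members, against 5.96% of all transcripts tested. The other 3 named members did not pass, with adjusted p-values of 0.450 to 0.771.

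**Figure D5:**
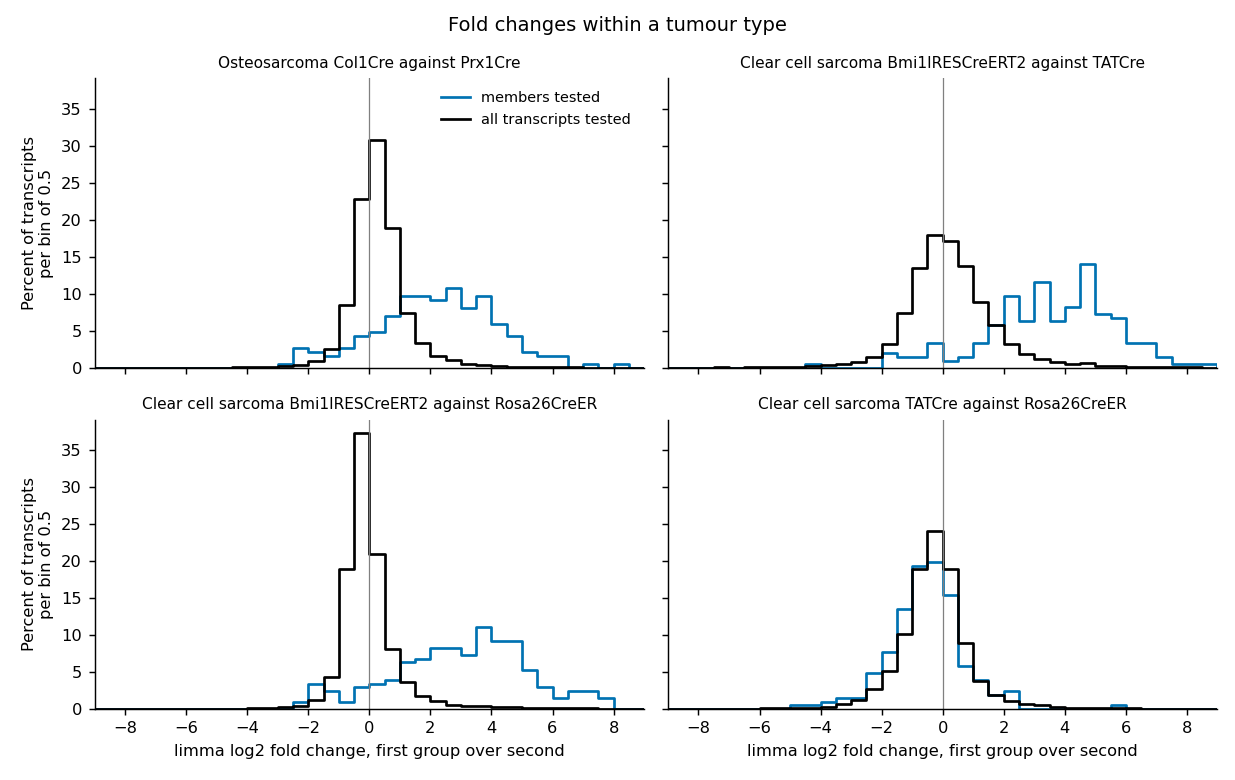
Distribution of limma log2 fold changes (bins of 0.5) of the members tested (blue) and of all transcripts tested (black) in the osteosarcoma contrast and 3 clear cell sarcoma contrasts. The blue lines lie to the right of 0 in the Col1Cre and both Bmi1IRESCreERT2 panels, with medians of 2.21, 3.73 and 3.16, and near the black line in the TATCre against Rosa26CreER panel, with a median of -0.50.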

How the data were processed

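The authors deposited 1 mouse table of RPKM values, 1 column per library, for mm9 transcripts named by UCSC identifiers. CASAVA 1.8.2, Novoalign 2.07.03 and mm9 are per the submitters' processing notes, and the sources used here name no counting program. A human array table was not analysed here. Columns were matched to libraries by title. RPKM values are not counts, so tests ran on log2(RPKM + 1) with limma 3.58.1 in R 4.3.3 (trended eBayes, two-sided), on transcripts with at least 1 RPKM in at least 3 of 7 osteosarcomas or 2 of 13 clear cell sarcomas. A pseudocount of 1 understates changes of low transcripts. The fits were tested on simulated data. Depth and length came from whole-read steps of RPKM: 16356 of 16398 lengths were recovered, 99.95% within 0.1 base of a whole number. The members and lists were chosen with earlier results of these data known. Named transcripts were, without gene names and among members of at least 100 bases, the 2 with the most positive and the 2 with the most negative log2 difference of synovial sarcoma minus control medians. Marker gene lists could not be used. Both Bmi1IRESCreERT2 contrasts and the restriction of tests and member counts to at least 100 bases were added after seeing the data. Alternatives were other pseudocounts, filters, scalings, rule limits and leaving out each library.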

Additional observations from a re-analysis of the deposited data

Results flagged for a closer look

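In groups of 4 to 10 libraries, a library was flagged when its gap to the nearest other was large against the whole range by Dixon's test. For normally distributed values, chance flags about 1 in 20 groups. RPKM values and shares cannot fall below 0 and need not be normal, so that rate may not hold here. A library above 0 is always flagged where all others of its group are at 0. Of 30 group and measure pairs tested, 10 were flagged, and 6 of the 10 were Rosa26CreER 2 within the 5 Rosa26CreER clear cell sarcomas. Its members had a mean log2(RPKM + 1) of 4.94 and took 2.94% of the summed RPKM. It had 15.1 RPKM of uc009teg.2, 175 of uc009pmp.1, 25.6 of uc008qso.1 and 18.9 of uc009ibr.1, each the highest of its group. Within the 4 TATCre libraries, TATCre N179-Larm stood apart with 1.20% of the summed RPKM in the members and 14.5 RPKM of uc008qso.1. TATCre N178-Lleg was flagged for 0.209 RPKM of uc009ibr.1, which the other 3 list at 0. Within the 4 Col1Cre osteosarcomas, Col1Cre 26 was flagged for 52.7 RPKM of uc009ibr.1. The measures share libraries, so the flags are not independent, and their cause was not tested.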

How the results depend on the processing

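The number of members moved most with the limits of the rule and with single synovial sarcomas. It was 323 with a 2-fold limit over the other tumours, 94 with at most 2-fold between synovial sarcoma and control, and 331 with no such limit. Leaving out 1 library at a time gave 105 to 310: 105 without 37-4, 106 without 44 and 115 without 37-8, but 310 without 37-7, 302 without 39-5 and 289 without 39-9, of which 93, 99, 104, 207, 205 and 195 were shared with the 212. Median ratio scaling gave 143 (114 shared) and quantile normalization 170 (145 shared). Averaging the libraries that share a title number gave 287 (190 shared). Restricting to a recovered length of 100 bases or longer dropped 47 shorter members and the 6 with no length. This left 159 members and median summed RPKM of 22628 in synovial sarcoma (85264 over all members) and 42222 in controls (128604).

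The F test over Cre groups called 12 members with a pseudocount of 0.1, 10 with no filter, 30 with median ratio scaling, 8 with the 2 TATCre N123 libraries averaged, and 3 to 61 without 1 library. A fit with the title number as a replicate block called 0 members and 48 transcripts in all. It compared only Prx1CreERT2 and Bmi1IRESCreERT2 with Rosa26CreER, since no TATCre library shares a number with another Cre group. Its counts therefore cannot be set beside those of the F test over all Cre groups. The pairing check over 5 pairs of libraries with the same number gave correlations of -0.35 to 0.38. It cannot decide whether the numbers paired libraries, because differently numbered pairs were not set beside these. Each pair also held a library from a group of 2, where both libraries deviate equally from the group mean. TATCre against Rosa26CreER called 2 members (0.966%, against 8.4%) with the N123 libraries averaged and 1 to 13 without 1 library. Its median log2 fold change lay between -0.95, without TATCre N179-Larm, and 0.16, without Rosa26CreER 2. Bmi1IRESCreERT2 against TATCre called 34 (16.4%, against 10.3%) with a pseudocount of 0.1 and 26 (12.6%, against 9.75%) with the N123 libraries averaged. It called 17 to 104 without 1 TATCre or Rosa26CreER library. Without 1 library, Bmi1IRESCreERT2 against Rosa26CreER called 0 to 32 and Col1Cre against Prx1Cre 0 to 8. A Bmi1IRESCreERT2 or Prx1CreERT2 library left alone was assumed to vary like the other groups. The share of all transcripts called moved between these settings as well, so the member counts alone do not describe the members. The causes were not tested. Depth limited the low side: a member had a median of 15 reads in a clear cell sarcoma and 12 in an osteosarcoma library.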
